A study of Mus musculus with 18 samples.

Results

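The 10 genes described here are the contractile genes of myofibroblasts, the activated fibroblasts that build smooth-muscle-type actin bundles: *Acta2*, *Actg2*, *Tagln*, *Cnn1*, *Cnn2*, *Myl9*, *Tpm1*, *Tpm2*, *Lmod1* and *Ccn2*. They were chosen by name and were found by Ensembl identifier as 10 of the 51912 genes of the count table, and all 10 were abundant enough to be tested among 15710 genes. RNA-seq had been carried out on mouse embryo fibroblasts (MEFs), primary cells grown out of embryos, at passage 1 in 15% fetal bovine serum and 5% oxygen. The MEFs were *Pole4*+/+ or *Pole4*-/-, and each of these was *Trp53*+/+, *Trp53*+/- or *Trp53*-/-, which gave 6 genotypes, all on the C57BL/6 background, with 3 libraries each and no treatment. *Pole4* encodes an accessory subunit of the leading-strand DNA polymerase epsilon, and *Trp53* encodes the tumor suppressor p53. The study's methods state that head, heart and liver were removed and that the rest of an embryo was dispersed, so each culture was a mixture of mesenchymal cells.

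Smooth muscle alpha-actin, calponins, transgelin and tropomyosins are transcribed in fibroblasts when serum response factor (SRF) is joined by the myocardin-related factors MRTF-A and MRTF-B, which enter the nucleus as monomeric actin is taken up into filaments. SRF binds a short DNA element called the CArG box, which is CC, then a run of A or T bases, then GG. TGF-beta signaling and the TEAD-YAP pathway act on the same genes, and *Ccn2*, which encodes connective tissue growth factor, is a much used readout of both. Fibroblasts on stiff plastic in serum take on this program to varying degrees, so its level can differ between cultures of the same genotype.

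To look for CArG boxes near the starts of these genes, promoters were taken from RefSeq (assembly GRCm38.p6), which held entries for 7 of the 10 genes: *Lmod1*, *Myl9*, *Tpm2*, *Cnn1*, *Tpm1*, *Cnn2* and *Acta2*. *Tagln*, *Actg2* and *Ccn2* were not matched. A window ran from 250 bases before the start of a gene to 50 bases after it. The 3 windows with a CArG box, or with a CArG box in which 1 of the middle bases was changed, are printed 5′ to 3′ on the strand of the gene, with those boxes in capitals. They lie at chr19:34255324-34255623 (minus strand, *Acta2*), chr10:79988350-79988649 (plus strand, *Cnn2*) and chr2:156775214-156775513 (plus strand, *Myl9*).
Acta2: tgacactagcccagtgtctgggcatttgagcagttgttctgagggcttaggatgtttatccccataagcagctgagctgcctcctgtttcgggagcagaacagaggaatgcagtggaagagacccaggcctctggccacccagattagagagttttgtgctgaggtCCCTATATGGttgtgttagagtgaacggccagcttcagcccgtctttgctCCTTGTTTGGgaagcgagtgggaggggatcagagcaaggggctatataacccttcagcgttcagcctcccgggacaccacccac
Cnn2: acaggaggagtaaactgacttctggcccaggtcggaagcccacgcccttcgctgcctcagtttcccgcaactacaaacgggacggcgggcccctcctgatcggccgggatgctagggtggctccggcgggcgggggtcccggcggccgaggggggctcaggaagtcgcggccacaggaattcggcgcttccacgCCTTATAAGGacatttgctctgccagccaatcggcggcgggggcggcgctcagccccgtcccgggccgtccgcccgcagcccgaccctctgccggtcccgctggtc
Myl9: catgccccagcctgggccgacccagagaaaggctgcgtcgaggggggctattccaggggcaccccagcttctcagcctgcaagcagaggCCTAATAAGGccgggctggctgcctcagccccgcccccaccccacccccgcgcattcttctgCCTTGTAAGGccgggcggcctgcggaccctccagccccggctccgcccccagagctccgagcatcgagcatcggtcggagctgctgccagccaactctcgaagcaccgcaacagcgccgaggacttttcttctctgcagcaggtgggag

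An exact CArG box on either strand stood in 2 of the 7 windows, CCTAATAAGG at 161 bases before the start of *Myl9* and CCTTATAAGG at 56 bases before the start of *Cnn2*. Of all 32851 promoters that RefSeq gave, 1.63% held one. With 1 middle base free to differ, *Acta2* also had CCCTATATGG at 84 and CCTTGTTTGG at 34 bases before its start, and *Myl9* had CCTTGTAAGG at 99. That looser form stood in 9.98% of all promoters. The TEAD motif GGAATG, searched on both strands, was found in *Acta2*, *Lmod1* and *Tpm1* and in 14.7% of all promoters. No search was made outside these windows.

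The libraries held from 9535971 to 35319918 counts, and ribosomal RNA genes took 0.968% to 42.5% of them. *Trp53* stood at 90.8 ± 4.81 CPM (a gene's share of its library's counts after TMM scaling, mean ± SD, n = 3) in *Pole4*+/+ *Trp53*+/+ MEFs and between 8.65 and 12.1 CPM in the 6 *Trp53*-/- libraries, and *Pole4* was between 9.26 and 11.99 CPM in the 9 *Pole4*-/- libraries against 14.2 to 26.4 CPM in the 9 others. Markers of other cells were low: macrophage markers summed to 4.81 to 53.9 CPM over 8 genes, endothelial markers to 1.64 to 6.17 CPM over 6, epithelial markers to 2.13 to 20.6 CPM over 7, cardiac muscle markers to 3.53 to 11.4 CPM over 9 and skeletal muscle markers to 26.8 to 156 CPM over 15. Most of the last sum was *Acta1*, a sarcomeric actin, at a median of 62.9 CPM, whereas *Myod1* and *Myog* had medians of 0.161 and 0.262 CPM. Fibroblast markers summed to 13720 to 30960 CPM over 10 genes. Vascular smooth muscle and pericyte markers summed to 213 to 671 CPM over 10 genes, with *Higd1b* at 0 in all 18 libraries, which allows up to 3 counts in each. Their part in the values below was not tested. In bulk RNA fewer cells of a type and less RNA per cell cannot be told apart.

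All 10 genes were strongly expressed. Per kilobase of exon, the scale on which genes can be compared, *Acta2* (smooth muscle alpha-actin) averaged 1555 CPM per kb over the 18 libraries and ranked 21 among the 15677 tested genes with a length. *Tagln*, which encodes the actin-bundling protein transgelin, averaged 585 CPM per kb (rank 58). *Myl9*, the regulatory light chain that switches smooth muscle and non-muscle myosin, followed at 334, *Ccn2* at 302, *Cnn2* (calponin 2) at 255, *Tpm1* (tropomyosin 1) at 246, *Actg2* (smooth muscle gamma-actin) at 205 and *Tpm2* (tropomyosin 2) at 139 CPM per kb. *Cnn1*, the calponin most specific to smooth muscle, stood at 88.3 CPM per kb (rank 450), and *Lmod1*, a leiomodin that nucleates actin filaments, at 19.1 CPM per kb (rank 2023). Together the 10 genes took between 0.565% and 1.18% of all counts of a library. The lowest count of any of them in any library was 567, so that counting error was small beside the spread between cultures. Of the windows of 100 bases, the read length, in the annotated transcripts, none of *Acta2* or *Actg2* occurred in another gene's transcripts, whereas 48.3% of those of *Tagln* were shared, nearly all with the antisense transcript *Gm48529*, and 12.1% of those of *Ccn2* with *Gm15270*. RSEM divides such reads, and *Gm48529* held 0.452% to 1.93% of the count of *Tagln* and *Gm15270* 0.289% to 1.06% of that of *Ccn2*. The library kit is not said to keep the strand, so reads of these overlapping pairs cannot be told apart with certainty.

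**Figure D1:**
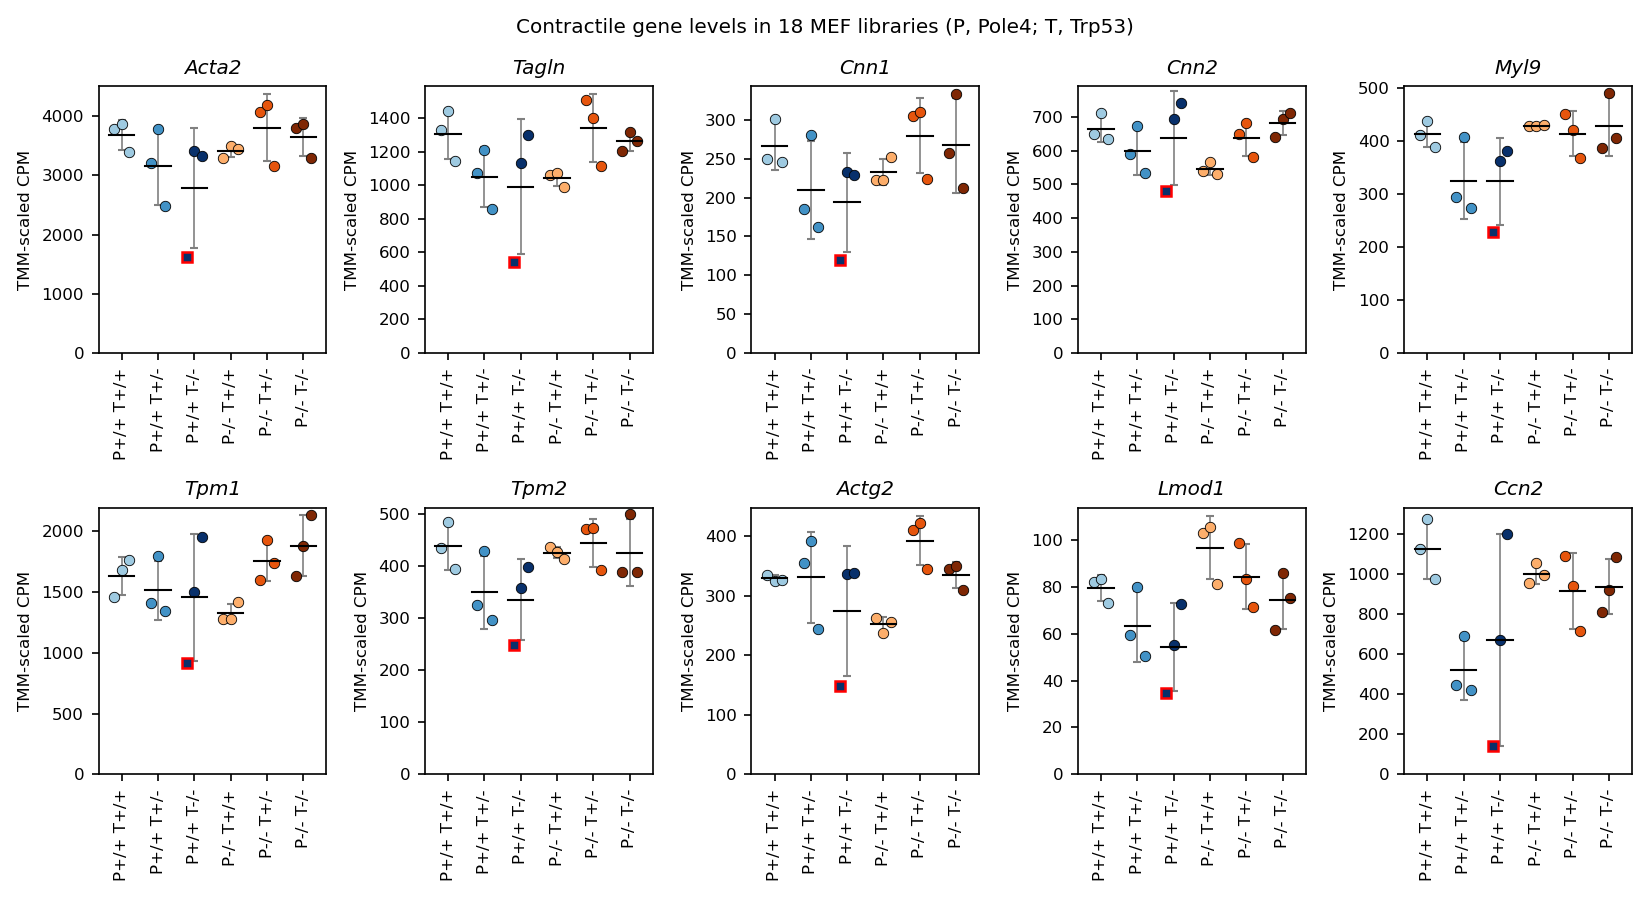
TMM-scaled CPM of the 10 genes (vertical axes, from 0) in the 6 genotypes (horizontal axes; P, Pole4; T, Trp53), with 1 point per library, black lines for the mean and grey bars for the SD (n = 3). The square with a red edge is the first Pole4+/+ Trp53-/- library, which is the lowest of the 18 points in all 10 panels, at 1623 CPM for Acta2 and 142 CPM for Ccn2.

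Across the 6 genotypes no contractile gene was called. In edgeR's quasi-likelihood test of any difference, 0 of 10 passed an adjusted p of 0.05 where 28.5% of all genes did, and 1 of 10, *Lmod1*, had an unadjusted p under 0.05 (adjusted p = 0.0762). DESeq2 called 1 of 10 (*Lmod1*) and 37.3% of all genes, and limma voom with quality weights called 8 of 10, all but *Acta2* and *Cnn1*, and 58.1% of all genes. Voom gave the first *Pole4*+/+ *Trp53*-/- library the lowest of the 18 weights, 0.107. With that library left out, edgeR called 3 of 10, *Cnn2*, *Ccn2* and *Actg2*, and 42.9% of all genes. The p-values measure the spread between libraries, which the labels do not tie to embryos by name.

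The most marked feature of these genes was 1 library. The first *Pole4*+/+ *Trp53*-/- library was the lowest of the 18 for 10 of 10 contractile genes, and for 10.3% of all genes tested. *Acta2* stood there at 1623 CPM, against 3418 and 3320 CPM in the other two libraries of its genotype and 2474 CPM in the next lowest library of the series. *Ccn2* stood at 142 CPM, against 672 and 1204 CPM in the other two. Averaged over the 10 genes, this library lay 1.02 below the mean on the log2 scale. The next lowest, the third *Pole4*+/+ *Trp53*+/- library, fell by 0.45, and no other library lay lower than the first *Pole4*+/+ *Trp53*+/- library at -0.23.

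That library was not shallow, with 28422803 counts, and its ribosomal RNA share was 1.82%. It had the highest level of the 18 libraries of *Pdgfra*, *Dcn* and *Lum*, genes of resting fibroblasts, at 254, 35.01 and 41.7 CPM against medians of 51.5, 6.27 and 4.66 CPM. Its level of *Vim*, the fibroblast intermediate filament gene, was the lowest, at 2113 CPM. Over the whole list of 10 fibroblast markers, however, 6 lay above their median and 4 below, and their sum of 21270 CPM ranked 10 from the lowest of the 18. The vascular smooth muscle and pericyte markers had their lowest sum there, 213 CPM, but were divided: 3 of 10 were at their lowest level of the 18 libraries, among them *Myh11* and *Des* at 24.6 and 10.01 CPM, 1 (*Cox4i2*, at 1.34 CPM) was at its highest, and 4 lay above their median. Its *Trp53* level was 11.6 CPM, within the range of the *Trp53*-/- libraries, and its *Cdkn1a* level was 11.8 CPM against 12.03 and 5.66 CPM in the other two. Of the low marker lists, macrophage markers lay below their median there for 8 of 8 genes, and skeletal muscle markers above it for 13 of 15. The sum of cardiac muscle markers ranked 17 from the lowest, and epithelial and endothelial markers were divided. What part these features had in its low contractile genes was not tested.

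**Figure D2:**
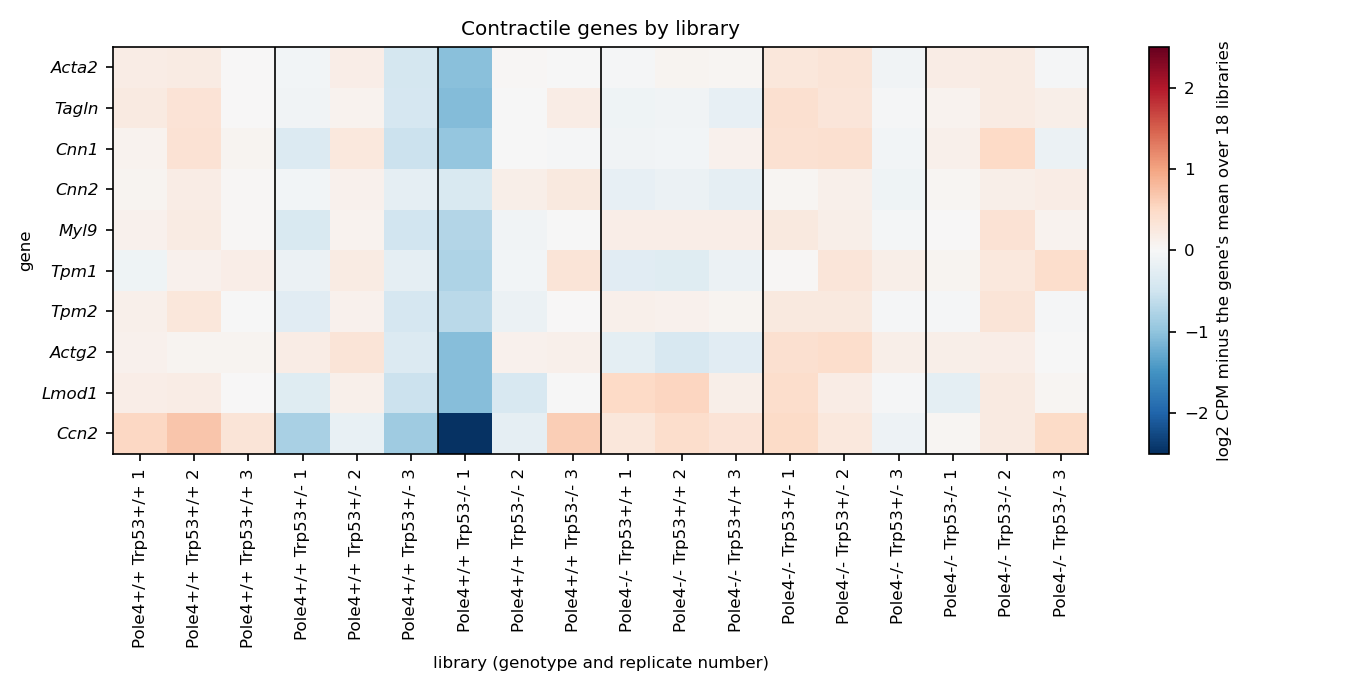
Log2 CPM of each contractile gene (rows) in each of the 18 libraries (columns, by genotype and replicate number) minus the gene's mean over the libraries, with blue for lower and red for higher levels. The column of the first Pole4+/+ Trp53-/- library is blue in all 10 rows, and 6 of the 18 columns lie wholly on one side of the mean.

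The 10 genes moved together from library to library. Over the 45 pairs of genes, Pearson's r of log2 CPM across the 18 libraries had a median of 0.80 and ran from 0.35 to 0.97. After the mean of each genotype was subtracted the median was 0.88 and the lowest was 0.67. Without the first *Pole4*+/+ *Trp53*-/- library the median across libraries was 0.60 and the lowest -0.03. *Tpm1* had the lowest median with the other 9 genes in that set, 0.34, and *Myl9* and *Tpm2* the highest, 0.78. The genes share their libraries and their scaling, so these values describe the 18 libraries. Over them the mean level of the 10 genes had r = 0.33 with the share of ribosomal RNA and r = -0.01 with log2 depth.

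Outside the 10 genes, among those whose levels followed the mean of the 10 most closely over the 18 libraries were *Actn1* (r = 0.96), *Rap1gap2* (0.95), *Tgfb3* (0.93), *Cap1* (0.93), *Vgll3* (0.93), *Mtpn* (0.93) and *Dstn* (0.93). *Actn1* encodes the alpha-actinin that crosslinks stress fibers, and *Cap1* and *Dstn* proteins that turn over actin filaments. Without the first *Pole4*+/+ *Trp53*-/- library r was 0.89 for *Actn1*, which still ranked first, whereas *Vgll3* ranked 14, *Mtpn* 13 and *Tgfb3* 19. Within genotypes *Tgfb3* ranked 91 and *Mtpn* 63. Within genotypes the leading genes were *Dstn* (0.97), *Mical2* (0.97), *Rrp1* (0.96), *Las1l* (0.96), *Actb* (0.96), *Csrp1* (0.96), *Actr2* (0.96) and *Actn1* (0.96), of which *Mical2* encodes an actin oxidase and *Actb* cytoplasmic beta-actin.

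Much of the spread of the contractile genes lay within genotypes. The SD within genotypes on the log2 scale had a median of 0.30 over the 10 genes, against 0.24 over all genes tested, and it was 0.69 for *Ccn2* and 0.17 for *Cnn2*. The medians were 0.18 and 0.20 without the first *Pole4*+/+ *Trp53*-/- library. The genotypes held a median of 40.1% of the variance of the 10 genes and 49.8% of that of all genes, and 55.5% and 59.6% without that library. *Lmod1*, at 57.3%, had the largest share among the 10 genes in the full set, and *Ccn2*, at 69.9%, without that library.

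To ask whether loss of p53 altered the contractile program in cells without POLE4, *Pole4*-/- *Trp53*-/- and *Pole4*-/- *Trp53*+/+ MEFs were compared. Of all genes, 42.6% were called in this comparison by edgeR, but 0 of the 10 contractile genes were. Their log2 fold changes were positive for 6 and negative for 4, with a median of 0.15, where the median of all genes was -0.02. *Tpm1* and *Cnn2* came closest to a call and were the 2 genes with an unadjusted p under 0.05. DESeq2 called these same 2 genes, and 43.4% of all genes, and limma voom called 4, these and *Actg2* and *Lmod1*, and 52.0% of all genes.

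*Tpm1* (chromosome 9, 67022590 to 67049406, minus strand), whose protein lies along the actin filament, stood at 1280, 1276 and 1417 CPM in *Pole4*-/- *Trp53*+/+ MEFs and at 1633, 1878 and 2135 CPM in *Pole4*-/- *Trp53*-/- MEFs. All 3 double mutant libraries lay above all 3 others. The groups did not overlap for 4 of the 10 genes, and for 57.0% of all genes. The log2 fold change was 0.51 ± 0.20 (SE), with an adjusted p of 0.0567 and a 95% interval of 0.07 to 0.94.

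*Cnn2* (chromosome 10, 79988584 to 79996062, plus strand), a calponin also found outside muscle, stood at 541, 566 and 531 CPM in *Pole4*-/- *Trp53*+/+ and at 642, 693 and 713 CPM in *Pole4*-/- *Trp53*-/- MEFs. The groups did not overlap. The log2 fold change was 0.32 ± 0.13, with an adjusted p of 0.0648. For both genes the two-sided permutation p was 0.1 (exact), the smallest that 3 libraries against 3 allow.

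*Actg2* (chromosome 6, 83512905 to 83536265, minus strand) was also separated, at 262, 237 and 256 CPM against 344, 349 and 310 CPM, with a log2 fold change of 0.41 ± 0.23 and an adjusted p of 0.168. *Tagln* (chromosome 9, 45929619 to 45936058, minus strand) stood at 1062, 1072 and 991 CPM against 1203, 1318 and 1262 CPM, with a log2 fold change of 0.28 ± 0.23. *Acta2* (chromosome 19, 34241090 to 34255590, minus strand) overlapped, at 3287, 3495 and 3452 CPM against 3796, 3864 and 3285 CPM, and its log2 fold change was 0.10 with a 95% interval of -0.38 to 0.57. A change of *Acta2* by a factor above 1.48 therefore lay outside the interval. *Myl9* and *Tpm2* had log2 fold changes of -0.004 and -0.001, with 95% intervals of -0.37 to 0.36 and -0.36 to 0.36. *Lmod1* (chromosome 1, 135324807 to 135368065, plus strand) had the lowest log2 fold change of the 10, at 103, 106 and 81.1 CPM against 61.7, 85.7 and 75.2 CPM (-0.38 ± 0.23, adjusted p = 0.187).

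All 18 libraries entered the estimate of the spread, and the calls depended on a library outside this comparison. Without the first *Pole4*+/+ *Trp53*-/- library 3 of 10 genes were called, *Tpm1* (log2 fold change 0.49, adjusted p = 0.00865), *Cnn2* (0.30, adjusted p = 0.0113) and *Actg2* (0.39, adjusted p = 0.0175), beside 47.6% of all genes. Without the third *Pole4*+/+ *Trp53*-/- library *Tpm1* and *Cnn2* were called, beside 43.8% of all genes. A fit of the 6 libraries alone called 4, *Tpm1*, *Cnn2*, *Actg2* and *Tagln*, beside 50.8% of all genes. With the replicate number as a block edgeR called *Tpm1* (0.50, adjusted p = 0.0284) and *Cnn2* (0.32, adjusted p = 0.049), beside 43.9% of all genes. In each of these fits the share of the 10 genes called was below that of all genes.

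In *Pole4*+/+ MEFs loss of p53 was accompanied by lower mean levels of all 10 genes, with none called. Here edgeR called 4.6% of all genes and 0 of 10 contractile genes, of which 2, *Lmod1* and *Tpm2*, had an unadjusted p under 0.05. DESeq2 and limma voom also called 0 of 10, beside 8.35% and 18.9% of all genes. The groups did not overlap for 3 of 10 genes and 16.5% of all genes. The log2 fold changes had a median of -0.39, against 0.03 for all genes. *Lmod1* stood at 81.9, 83.3 and 73.3 CPM in *Pole4*+/+ *Trp53*+/+ and at 34.9, 55.2 and 72.5 CPM in *Pole4*+/+ *Trp53*-/- MEFs, without overlap, with a log2 fold change of -0.56 ± 0.23 (adjusted p = 0.178). *Tpm2* (chromosome 4, 43514711 to 43523765, minus strand) stood at 435, 485 and 396 CPM against 249, 359 and 399 CPM, with 1 library in the range of the other group (-0.39 ± 0.17, adjusted p = 0.221). *Acta2* was at 3790, 3871 and 3392 CPM against 1623, 3418 and 3320 CPM, and *Ccn2* (chromosome 10, 24595442 to 24598683, plus strand) at 1127, 1278 and 978 CPM against 142, 672 and 1204 CPM.

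These values rested largely on the first *Trp53*-/- library. Without it the median was -0.17, 3 of 10 values were positive, and the log2 fold changes of *Cnn2*, *Tpm1* and *Actg2* were 0.08, 0.05 and 0.01, against -0.06, -0.16 and -0.26 with it. Without the third *Trp53*-/- library *Lmod1* was called, with a log2 fold change of -0.84 (adjusted p = 0.048), beside 4.02% of all genes. Vascular smooth muscle and pericyte markers had lower sums here too, of 213 to 316 CPM in *Trp53*-/- against 424 to 440 CPM in *Trp53*+/+ MEFs, with 2 of 9 called lower, 0 higher and a median log2 fold change of -0.64. The sum of skeletal muscle markers, most of it *Acta1*, was 26.8 to 44.0 CPM against 77.5 to 85.6 CPM. Gene by gene that list went the other way, with 8 of 9 log2 fold changes positive, a median of 1.54, 1 called lower and 0 higher. Their part in the levels of the 10 genes was not tested. All 6 libraries of this comparison were from female cells by *Xist*.

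The difference between the effects of p53 loss in the 2 *Pole4* backgrounds was tested directly. It was positive for 10 of 10 genes, with a median of 0.58 on the log2 scale against -0.02 for all genes, and it was called for 0 of 10 where edgeR called 0.331% of all genes. One gene, *Tpm1*, had an unadjusted p under 0.05 (0.67 ± 0.29, adjusted p = 0.146). DESeq2 and limma voom called 0 of 10, beside 11.4% and 7.59% of all genes. Without the third *Pole4*+/+ *Trp53*-/- library *Tpm1* (0.94, adjusted p = 0.0231) and *Tagln* (0.92, adjusted p = 0.0464) were called, beside 20.1% of all genes, and without the first 0 of 10 were. Without that first library the median of the difference was 0.23, with 9 of 10 values positive, and *Lmod1* stood at -0.05.

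**Figure D3:**
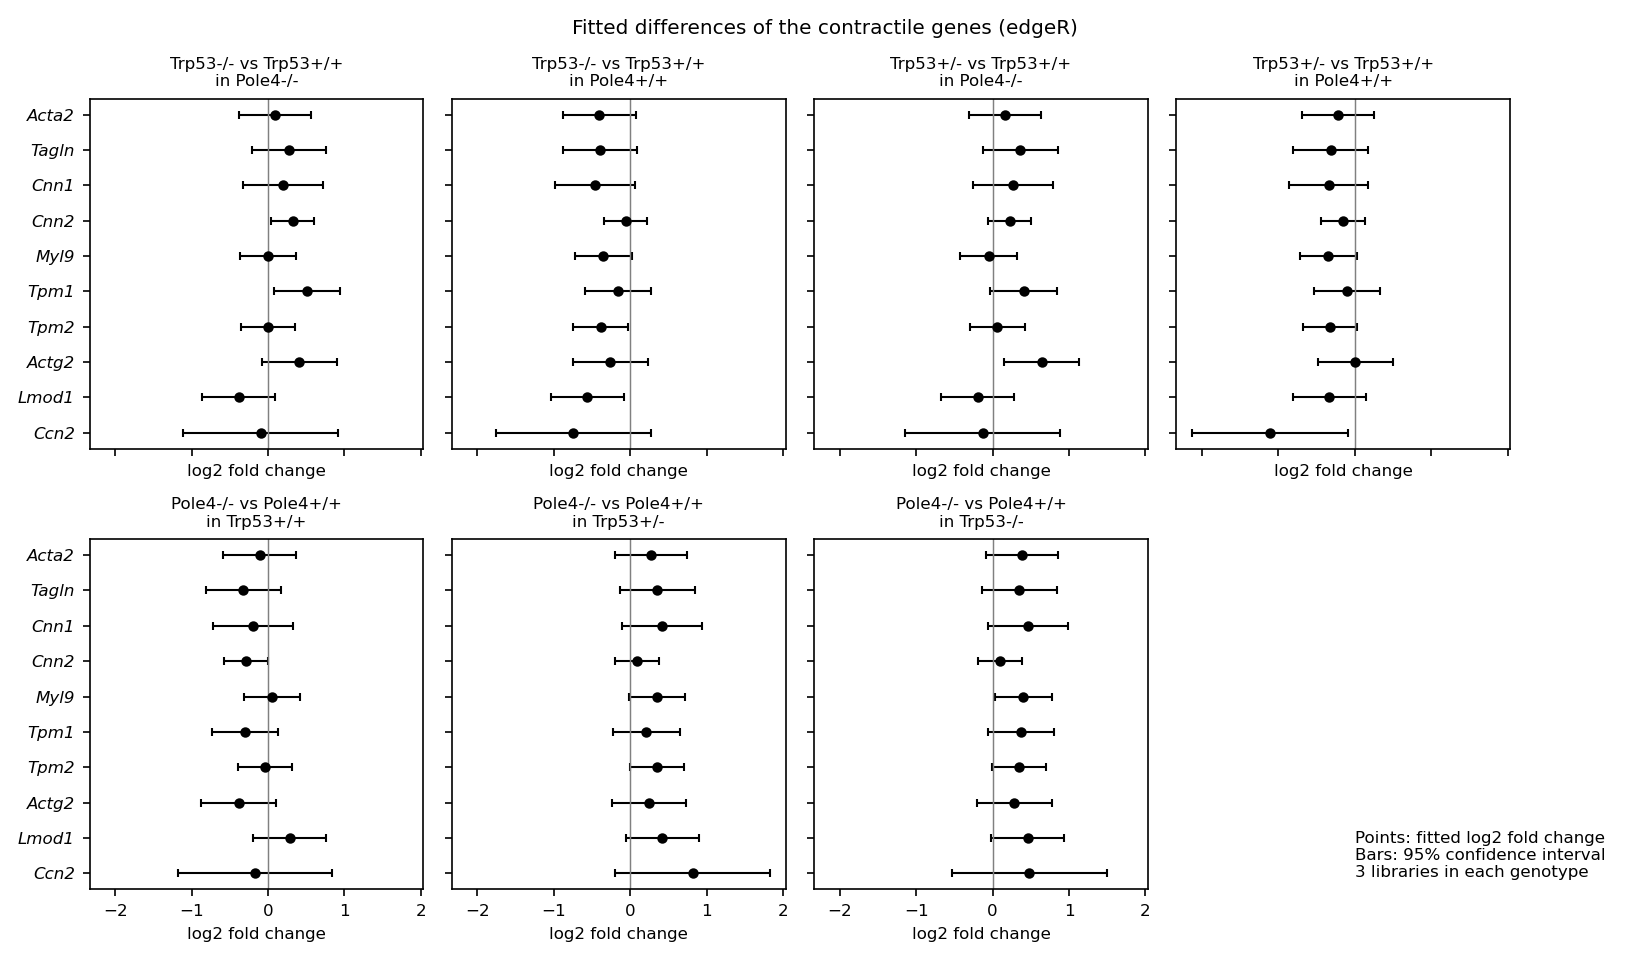
Fitted log2 fold changes (horizontal axes) of the 10 genes (vertical axes) in the 7 pairwise comparisons, with 95% confidence intervals from edgeR. All 10 points lie left of 0 for Trp53-/- against Trp53+/+ in Pole4+/+ MEFs and right of 0 for Pole4-/- against Pole4+/+ in Trp53+/- and in Trp53-/- MEFs, and most intervals include 0.

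Loss of 1 copy of *Trp53* in *Pole4*-/- MEFs gave mixed directions. Of all genes 5.12% were called by edgeR and 0 of 10 contractile genes, with 7 of 10 log2 fold changes positive and a median of 0.19 against -0.01. This comparison shares its *Pole4*-/- *Trp53*+/+ libraries with that of the double mutant. *Actg2*, the 1 gene with an unadjusted p under 0.05, stood at 410, 422 and 345 CPM in *Pole4*-/- *Trp53*+/- against 262, 237 and 256 CPM in *Pole4*-/- *Trp53*+/+ MEFs, 3 libraries above 3. Its log2 fold change was 0.64 ± 0.23 (adjusted p = 0.103), and the fold change of 1.56 was the largest rise of any contractile gene in this background. *Tpm1* stood at 1597, 1926 and 1743 CPM, also above the range of the *Trp53*+/+ libraries (0.41 ± 0.20, adjusted p = 0.219). There was no overlap for 4 of 10 genes and 40.3% of all genes. Vascular smooth muscle and pericyte markers had 2 of 9 called lower and 0 higher, with a median of -0.88 and sums of 381 to 527 CPM against 611 to 671 CPM, and their part was not tested. DESeq2 called *Actg2*, beside 11.04% of all genes, and limma voom called *Actg2* and *Tagln*, beside 24.6%. Without the first *Pole4*+/+ *Trp53*-/- library edgeR called *Actg2* (0.65, adjusted p = 0.00333) and *Tpm1* (0.41, adjusted p = 0.0468), beside 3191 of all 15953 genes tested.

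In *Pole4*+/+ MEFs loss of 1 copy of *Trp53* was accompanied by the largest single difference among these genes, that of *Ccn2*. It stood at 448, 694 and 422 CPM in *Pole4*+/+ *Trp53*+/- MEFs against 1127, 1278 and 978 CPM in *Pole4*+/+ *Trp53*+/+ MEFs, as the 1 gene of 10 without overlap, beside 20.3% of all genes. The log2 fold change was -1.11 ± 0.48, with a 95% interval of -2.14 to -0.09 and an adjusted p of 0.422. It was the 1 gene of the 10 with an unadjusted p under 0.05, and edgeR called 0 of 10 and 0.904% of all genes. DESeq2 called 0 of 10, beside 2.57% of all genes, and limma voom called *Ccn2* (-1.22, adjusted p = 0.0047) and *Myl9* (-0.42, adjusted p = 0.0395), beside 7.13% of all genes. Without the first *Pole4*+/+ *Trp53*-/- library edgeR called *Ccn2* (-1.12, adjusted p = 0.021), beside 2.34% of all genes. The other 9 genes were below their *Trp53*+/+ mean in the fit in all but 1 case, *Actg2* at 0.01. Vascular smooth muscle and pericyte markers summed to 269 to 337 CPM against 424 to 440 CPM in *Trp53*+/+ MEFs, with 0 of 9 called by edgeR, 3 at an unadjusted p under 0.05 and a median log2 fold change of -0.41, and skeletal muscle markers to 38.8 to 55.9 CPM against 77.5 to 85.6 CPM. Their part in these values was not tested. All 3 *Pole4*+/+ *Trp53*+/- libraries were male and all 3 *Pole4*+/+ *Trp53*+/+ libraries female, so sex and genotype cannot be told apart here.

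Loss of POLE4 was then compared at each *Trp53* dose. In *Trp53*+/+ MEFs 3.98% of all genes were called by edgeR and 0 of 10 contractile genes, with 2 of 10 log2 fold changes positive and a median of -0.18. *Cnn2* had an unadjusted p under 0.05, at 541, 566 and 531 CPM against 651, 712 and 634 CPM in *Pole4*+/+ *Trp53*+/+ MEFs, without overlap (-0.29 ± 0.13, adjusted p = 0.191). *Actg2* stood at 262, 237 and 256 CPM against 335, 325 and 326 CPM, again without overlap (-0.39 ± 0.23, adjusted p = 0.297). In all, 4 of 10 genes and 41.1% of all genes had no overlap. DESeq2 called 0 of 10, beside 10.3% of all genes, limma voom called 3 (*Cnn2*, *Tagln* and *Actg2*), beside 33.5% of all genes, and without the first *Pole4*+/+ *Trp53*-/- library edgeR called *Cnn2* (adjusted p = 0.0345) and *Actg2* (adjusted p = 0.0397), beside 20.2%. The *Pole4*-/- *Trp53*+/+ libraries, 2 of 3 of them male, were close to each other for most genes, and *Myl9* stood at 428, 429 and 430 CPM.

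In *Trp53*+/- MEFs and in *Trp53*-/- MEFs all 10 genes had a positive log2 fold change for *Pole4*-/- against *Pole4*+/+. The medians were 0.35 and 0.38, against 0.00 and -0.02 for all genes, and edgeR called 0 of 10 contractile genes and 0.00637% of all genes, 1 of 15710, in each. At an unadjusted p under 0.05 there were 0 of 10 in *Trp53*+/- and 1 of 10, *Myl9*, in *Trp53*-/- MEFs. DESeq2 and limma voom called 0 of 10 in both, beside 0.274% and 1.58% of all genes in *Trp53*+/- and 0.185% and 0.00637% in *Trp53*-/- MEFs. *Ccn2*, at 1094, 940 and 719 CPM against 448, 694 and 422 CPM in *Trp53*+/- MEFs, was the 1 gene of 10 whose groups did not overlap there (0.82 ± 0.48, adjusted p = 0.984), beside 13.1% of all genes. *Myl9* (chromosome 2, 156775420 to 156781658, plus strand), at 387, 491 and 406 CPM against 229, 361 and 381 CPM, was the 1 gene of 10 without overlap in *Trp53*-/- MEFs (0.40 ± 0.17, adjusted p = 0.459), beside 9.15% of all genes. In *Trp53*+/- MEFs, where libraries of the same number deviated together, the *Pole4*-/- library lay above the *Pole4*+/+ library of its number in all 3 pairs for 10 of 10 genes. The share of all genes for which this held was not counted. The 10 genes moved together within genotypes (median r of 0.88), so these are not 10 separate results. With the replicate number as a block edgeR called 0 of 10 in *Trp53*+/- MEFs, beside 0.00637% of all genes. The vascular smooth muscle and pericyte markers summed to 381 to 527 CPM in *Pole4*-/- against 269 to 337 CPM in *Pole4*+/+ libraries of that dose, with 0 of 9 called by edgeR and 2 at an unadjusted p under 0.05. By *Xist*, 1 of 3 *Pole4*-/- and 3 of 3 *Pole4*+/+ libraries of that dose were male, and 1 of 3 and 0 of 3 in *Trp53*-/- MEFs. With *Xist* as a covariate edgeR called 0 of 10 at both doses, beside 0 and 1 of all 15710 genes. In *Trp53*-/- MEFs the values rested on the first *Pole4*+/+ library, without which the median was 0.12 and 8 of 10 were positive. Ribosomal RNA took 24.7% to 30.0% of the *Pole4*-/- and 1.82% to 13.1% of the *Pole4*+/+ libraries there. With library totals alone the median of all genes was -0.44, that of the 10 genes -0.02, and 3 of 10 were positive. That scaling moved all genes, and the median of the 10 genes lay above that of all genes under both scalings.

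*Cnn1* (chromosome 9, 22099216 to 22109630, plus strand) had a wide spread within several genotypes. Its values ran from 211.9 to 333 CPM in *Pole4*-/- *Trp53*-/-, from 224 to 310 CPM in *Pole4*-/- *Trp53*+/- and from 163 to 281 CPM in *Pole4*+/+ *Trp53*+/- MEFs, and its lowest adjusted p in the 8 comparisons with a fold change was 0.225, for the difference between backgrounds. *Acta2* had its highest mean in *Pole4*-/- *Trp53*+/- MEFs (3806 ± 565 CPM), followed by the wild type (3684 ± 256 CPM) and the double mutant (3648 ± 317 CPM). Next came *Pole4*-/- cells with both copies of *Trp53* (3411 ± 110 CPM), and the lowest means were those of *Pole4*+/+ cells with 1 copy (3153 ± 654 CPM) and with none (2787 ± 1009 CPM). Each of these means lay within 1 SD of its neighbor, taking the larger SD of the pair.

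Of 10 genes that act on the contractile program or report on it, 3 were called in *Pole4*-/- MEFs after p53 loss, beside 42.6% of all genes. *Srf* was called higher in *Pole4*-/- *Trp53*-/- MEFs, at 98.7 ± 12.3 CPM against 53.4 ± 3.53 CPM in *Pole4*-/- *Trp53*+/+ MEFs (0.88 ± 0.24 on the log2 scale, adjusted p = 0.00838). *Myocd*, the smooth muscle SRF coactivator, was called higher there too, from 3.54 ± 0.67 to 6.67 ± 1.28 CPM (0.92 ± 0.31, adjusted p = 0.026), and so was the TGF-beta signal transducer *Smad3* (0.27 ± 0.10, adjusted p = 0.0427). With each of the 18 libraries left out in turn, *Srf* was called in all 18 fits, *Myocd* was lost in 3 (without the first or the third *Pole4*-/- *Trp53*+/+ or the third *Pole4*-/- *Trp53*-/- library) and *Smad3* in 10, with adjusted p up to 0.108 and 0.219. The coactivator genes *Mrtfa* and *Mrtfb* had log2 fold changes of 0.10 and -0.02, *Yap1* had 0.13, and their adjusted p were 0.491, 0.89 and 0.264. The ligand gene *Tgfb1* (0.45, adjusted p = 0.0862), the receptor gene *Tgfbr2* (-0.85, adjusted p = 0.0561), the inhibitor gene *Smad7* (0.27) and the target *Ccn1* (0.08) were not called. In *Pole4*+/+ MEFs 0 of these 10 genes were called by edgeR after p53 loss, and *Smad3* had the lowest p (0.33 ± 0.10, adjusted p = 0.0731). None of the 10 was called in the Pole4 comparisons or in those of *Trp53*+/- MEFs with *Trp53*+/+ MEFs.

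Lists of related genes gave the surroundings of the 10 genes. In *Pole4*-/- MEFs 11 of 14 myofibroblast matrix genes fell after p53 loss and 0 rose, with a median of -0.81. *Lox*, a collagen crosslinking enzyme, fell from 3518 ± 328 to 1182 ± 151 CPM (-1.57 ± 0.21, adjusted p = 5.45e-05), and *Sparc*, a collagen-binding matrix protein, from 2678 ± 173 to 1478 ± 124 CPM (-0.86 ± 0.12, adjusted p = 7.01e-05). With any 1 library left out, 9 to 11 matrix genes were lower and 0 higher. Fibroblast markers, which share *Col1a1*, *Col1a2*, *Col3a1* and *Fn1* with the matrix list, had 5 of 10 lower and 1 higher. Vascular smooth muscle and pericyte markers, which share *Myh11* and *Des* with the list of other contractile genes, had 5 of 9 lower and 0 higher, with a median of -0.93, and their summed level was 258 to 351 CPM in *Pole4*-/- *Trp53*-/- against 611 to 671 CPM in *Pole4*-/- *Trp53*+/+ MEFs. Their part in the contractile gene levels was not tested.

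Other smooth muscle contractile genes were divided in the same comparison, with 5 of 25 higher and 6 lower. *Mylk*, the myosin light chain kinase that acts on the product of *Myl9*, fell from 58.3 ± 11.1 to 18.9 ± 1.77 CPM (-1.63 ± 0.22, adjusted p = 5.26e-05), and *Itga1*, a collagen receptor subunit, fell from 50.8 ± 1.99 to 14.4 ± 3.68 CPM (-1.81 ± 0.26). Non-muscle actomyosin genes had 6 of 23 higher and 1 lower, with *Cdc42ep3* higher (1.10 ± 0.27) and *Myh10*, a non-muscle myosin heavy chain, lower (-0.43 ± 0.12). SRF, MRTF and TEAD-YAP regulators had 6 of 16 higher and 2 lower, among them *Tead2* (0.62 ± 0.13) and *Foxo1* (-0.62 ± 0.13). Targets of YAP and SRF had 1 of 13 higher and 5 lower. In that list *Thbs1*, thrombospondin 1, fell from 11510 ± 696 to 4465 ± 782 CPM (-1.37 ± 0.27), and *Axl*, a receptor tyrosine kinase, rose (0.78 ± 0.17). The TGF-beta pathway had 5 of 22 in each direction, with the coreceptor gene *Eng* (-1.25 ± 0.14) and *Itgb5* (-0.56 ± 0.09) lowest in p. With 1 library left out, the counts ran from 4 to 8 higher and 5 to 7 lower for the other contractile genes, 3 to 10 and 0 to 2 for non-muscle actomyosin, 3 to 6 and 1 to 3 for the regulators, 1 to 3 and 2 to 5 for the targets and 3 to 7 and 4 to 7 for the TGF-beta pathway. *Myh10* was lost without the first *Pole4*-/- *Trp53*+/+ or the third *Pole4*-/- *Trp53*-/- library (adjusted p up to 0.0613), and the other 9 genes named from these 5 lists were called in all 18 fits. Over these 6 lists the share called ran from 30.4% to 78.6%, beside 42.6% of all genes. Of the marker lists of other cells, 1 of 9 skeletal muscle and 1 of 5 cardiac genes were lower, 2 of 2 epithelial genes were higher, and 0 of 8 macrophage and 0 of 3 endothelial genes were called by edgeR, with 0 and 3 at an unadjusted p under 0.05.

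After p53 loss in *Pole4*+/+ MEFs 0 of 14 matrix genes were called by edgeR, beside 4.6% of all genes, with 7 at an unadjusted p under 0.05, beside 19.0% of all genes. DESeq2 called 3 lower, beside 8.35% of all genes, and limma voom 5 lower and 1 higher, beside 18.9%. Among the other contractile genes 1 of 25 was higher and 2 lower, *Ldb3* (-1.54 ± 0.23, adjusted p = 0.000945) and *Des*, the muscle intermediate filament gene (-1.45 ± 0.33, adjusted p = 0.0193). *Thbs1* (-1.09 ± 0.27, adjusted p = 0.0276), *Eng* (-0.78 ± 0.14, adjusted p = 0.00382) and *Ltbp2* (-0.81 ± 0.19, adjusted p = 0.0237) fell as well. *Eng* and *Ldb3* were called without any 1 library, whereas *Des* was lost without the third *Pole4*+/+ *Trp53*+/+ library, *Thbs1* without that or the first, and *Ltbp2* without the first or second, and *Thbs1* and *Ltbp2* also without the second *Pole4*+/+ *Trp53*-/- library. Without the first *Pole4*+/+ *Trp53*-/- library 4 of 14 matrix genes were called lower, beside 16.9% of all genes. The difference between backgrounds was negative for 14 of 14 matrix genes, with a median of -0.69, and edgeR called 0 of them, with 11 at an unadjusted p under 0.05, beside 28.3% of all genes. With 1 library left out it called 0 to 5, the most without the third *Pole4*+/+ *Trp53*-/- library. DESeq2 called 6 and limma voom 2, all negative, beside 11.4% and 7.59% of all genes.

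Loss of POLE4 in *Trp53*+/+ MEFs was accompanied by higher matrix genes, with 3 of 14 called higher and 0 lower beside 3.98% of all genes. *Fn1*, fibronectin, rose from 5672 ± 1019 to 9217 ± 1203 CPM (0.70 ± 0.18, adjusted p = 0.0401) and *Eln*, elastin, from 52.9 ± 20.9 to 192 ± 40.6 CPM (1.86 ± 0.47, adjusted p = 0.0433). Of the other contractile genes 4 of 25 rose, with the integrin genes *Itga8* (1.08 ± 0.23) and *Itga1* (1.03 ± 0.25) lowest in p. *Tgfb2*, counted with the YAP and SRF targets, rose (0.82 ± 0.18), and the TGF-beta pseudoreceptor gene *Bambi* fell (-0.85 ± 0.20). Of the *Pole4*-/- libraries here 2 of 3 were male, and of the *Pole4*+/+ libraries 0 of 3. With *Xist* as a covariate 0 of 14 matrix genes and 0 of 25 other contractile genes were called, beside 3 of all 15710 genes. The calls also rested on single libraries. *Fn1* and *Eln* were each lost in 10 of the 18 fits without 1 library, among them every fit without a *Pole4*-/- *Trp53*+/+ library or without the first or second *Pole4*+/+ *Trp53*+/+ library, and the count of matrix genes called ran from 0 to 6. *Itga8* was lost in 5 of the 18 fits, *Itga1* in 9, *Tgfb2* in 4 and *Bambi* in 5, and the count of other contractile genes ran from 0 to 5 higher and from 0 to 4 lower, with the most of both without the first *Pole4*+/+ *Trp53*-/- library. Vascular smooth muscle and pericyte markers also had higher sums, of 611 to 671 CPM against 424 to 440 CPM, with 1 of 9 called higher and a median log2 fold change of 0.49. Ribosomal RNA took 7.11%, 24.1% and 42.5% of the *Pole4*-/- and 5.81% to 11.3% of the *Pole4*+/+ libraries. Their part in these values was not tested. With library totals alone it was 0 of 14, and the median of all genes was -0.28.

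**Figure D4:**
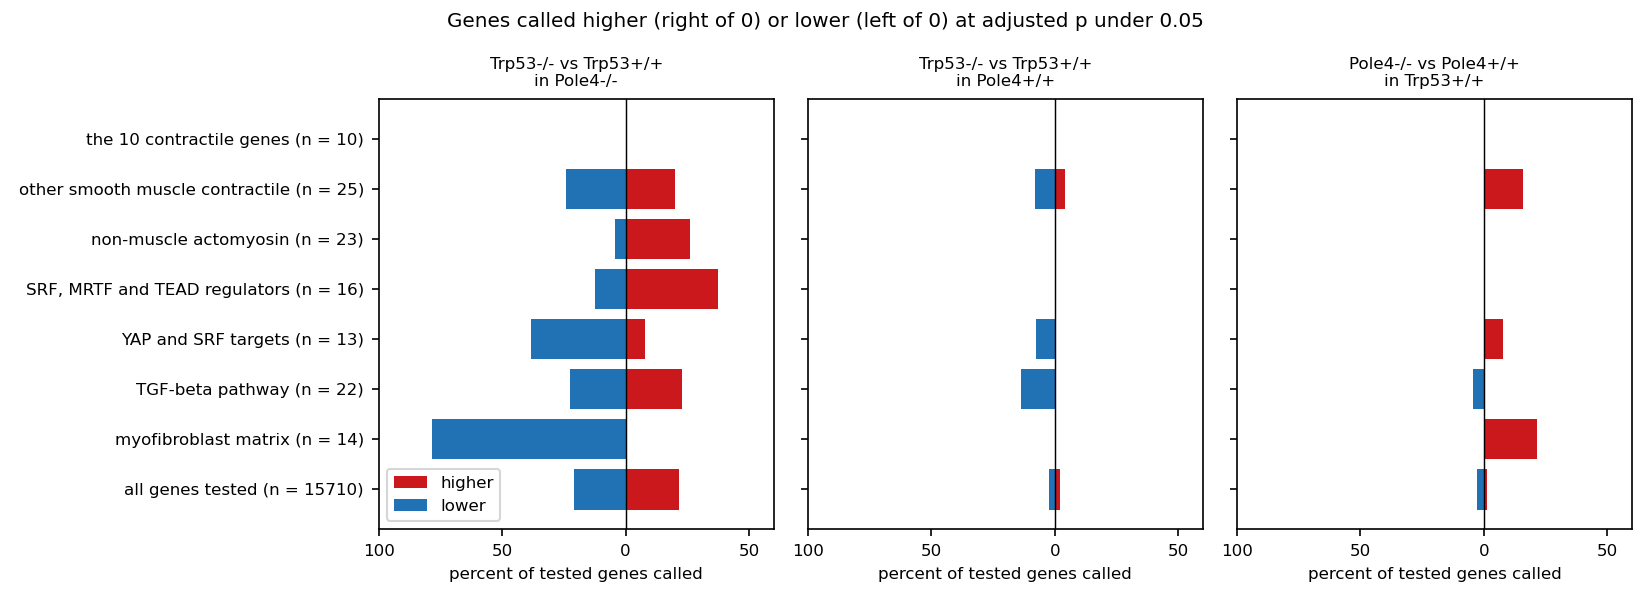
Percent of the tested genes of each list (vertical axis, with the number tested) that edgeR called higher (red, right of 0) or lower (blue, left of 0) in 3 comparisons, with all 15710 genes as the last bar. The row of the 10 contractile genes is empty in all 3 panels, whereas 11 of 14 matrix genes are lower for Trp53-/- against Trp53+/+ in Pole4-/- MEFs.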

How the data were processed

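RNA had been extracted (with TRIzol per the labels, with an RNeasy kit per the study's methods) from 18 MEF cultures, 3 for each of 6 genotypes, and amplified with the Ovation RNA-Seq System V2 (NuGen), and paired reads of 100 bases came from an Illumina HiSeq instrument. The authors deposited expected counts per Ensembl gene, which RSEM had estimated from STAR alignments to GRCm38 after adapter trimming (Trim Galore). The submitters' processing notes list STAR 2.5.2, RSEM 1.3.0 and DESeq2 1.10.1.

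Expected counts were rounded to whole numbers (6.14% were not whole). Gene names came from the GENCODE M21 annotation. Low genes were removed with filterByExpr, which left 15710, and TMM factors and a robust quasi-likelihood F-test were applied in edgeR 4.0.16 (R 4.3.3), with 1 mean per genotype over all 18 libraries and 12 residual degrees of freedom. P-values were adjusted by Benjamini-Hochberg over all 15710 genes, and a gene was called under 0.05. CPM were computed by edgeR from the TMM-scaled library sizes, and CPM per kb divides by exon length. The test was checked on simulated counts. Alternatives were DESeq2 1.42.0, voom with quality weights in limma 3.58.1, other scalings and filters, an *Xist* covariate, the replicate number as a block, the compared libraries alone, and each library left out.

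Libraries held 9535971 to 35319918 counts (median 22781543). The bound of 3 counts for a gene at 0 covers counting error only, whereas the 95% intervals of log2 fold changes carry the spread between libraries. For *Pole4* in *Trp53*+/- MEFs the deviations of same-numbered libraries had r = 0.261, 0.497 and 0.292, each above the highest r with another number. For *Trp53*-/- against *Trp53*+/+ in *Pole4*-/- MEFs r was lower, at 0.074, 0.154 and 0.219. These too lay above the highest r with another number (0.013, 0.066 and -0.121). In the other comparisons this did not hold for every number. The labels do not say what a number marks. The 10 genes and all lists were chosen with earlier results of these data known. All 10 are named. From the 6 other gene lists the 2 called genes with the lowest p were named in both *Trp53*-/- comparisons and in *Pole4*-/- against *Pole4*+/+ in *Trp53*+/+ MEFs, together with 10 regulators and targets and the genes most alike. One gene that the rule would name is not reported here. Motifs were searched as letters in RefSeq promoters.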

Additional observations from a re-analysis of the deposited data

How the results depend on the processing

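Over 80 log2 fold changes and differences of the 10 genes and 2320 values under alternatives, 2208 kept their direction and their side of the threshold, 51 became calls and 61 turned direction, and 44 of the 80 did neither in any. The 61 include turns under library totals, a scaling that moved all genes for *Pole4* in *Trp53*-/- MEFs. The count of contractile genes called was 0 in each comparison. For *Trp53*-/- in *Pole4*-/- MEFs it was 2 with no filter (beside 19.3% of all genes), with DESeq2 (43.4%) and with the replicate block (43.9%). It was 4 with voom (52.0%), with the compared libraries alone (50.8%) and without 2 libraries (43.6%). These were the first *Pole4*+/+ *Trp53*-/- and the third *Pole4*-/- *Trp53*+/+ library, chosen after seeing the data. The count ran from 0 to 3 when 1 library was left out. For *Trp53*+/- in *Pole4*-/- MEFs it was 2 with library totals (beside 13.8% of all genes), voom (24.6%) and the compared libraries (18.2%). It was 1 with DESeq2 (11.04%) and without the 2 libraries (12.5%), and 0 to 2 without 1. For *Trp53*+/- in *Pole4*+/+ MEFs it was 2 with voom (beside 7.13% of all genes), 1 with the compared libraries (1.54%) and without the 2 (1.88%), and 0 to 1 without 1. For *Pole4* in *Trp53*+/+ MEFs it was 2 with totals (beside 14.3% of all genes), 3 with voom (33.5%) and the compared libraries (24.1%), and 0 to 2 without 1. It was 0 to 1 without 1 library for *Trp53*-/- in *Pole4*+/+ MEFs and 0 to 2 for the difference between backgrounds. For any difference it was 8 with voom (beside 58.1% of all genes) and 0 to 3 without 1. It was 1 with totals (22.1%), upper-quartile scaling (29.0%), a mean of 50 counts (38.5%), DESeq2 (37.3%) and without the 2 (37.2%). The replicate block changed no other count of the 10 genes. The cause was not tested.

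Other settings turned some directions. Totals scaling brought the median of all genes to -0.44 for *Pole4* in *Trp53*-/- MEFs, from -0.02. There *Acta2* and *Myl9* were at -0.00, *Tagln* at -0.04, *Cnn2* at -0.31, *Tpm1* at -0.03, *Tpm2* at -0.06 and *Actg2* at -0.10. These turns came with a shift of all genes, so they do not show a turn relative to all genes. The median of the contractile genes lay above that of all genes under both scalings. Totals also gave *Cnn2* 0.02 for *Trp53*-/- in *Pole4*+/+, *Myl9* 0.25, *Lmod1* 0.08 and *Ccn2* 0.17 for *Trp53*+/- in *Pole4*-/-, *Actg2* -0.03 for *Trp53*+/- in *Pole4*+/+, and *Myl9* -0.24 for *Pole4* in *Trp53*+/+ MEFs. No filter gave *Myl9* 0.04 and *Tpm2* 0.05 for *Trp53*-/- and *Myl9* 0.01 for *Trp53*+/- in *Pole4*-/-, and *Myl9* -0.01 for *Pole4* in *Trp53*+/+ MEFs. The *Xist* covariate gave *Myl9* 0.03 and *Tpm2* 0.03 for *Trp53*-/- in *Pole4*-/-, and *Myl9* -0.02 for *Pole4* in *Trp53*+/+ MEFs. Voom gave *Tpm2* 0.00 for *Trp53*-/- in *Pole4*-/-, *Cnn2* 0.07 and *Tpm1* 0.02 for *Trp53*-/- in *Pole4*+/+, *Actg2* -0.04 for *Trp53*+/- in *Pole4*+/+, and *Cnn2* -0.04 for *Pole4* in *Trp53*-/- MEFs. The block gave *Actg2* -0.00 for *Trp53*+/- in *Pole4*+/+. For *Tpm2* and *Pole4* in *Trp53*+/+ MEFs, upper-quartile scaling gave 0.02 and the mean of 50 counts 0.01. Without the 2 libraries, *Cnn2* was 0.11, *Tpm1* 0.08 and *Actg2* 0.03 for *Trp53*-/- in *Pole4*+/+, *Cnn2* -0.07 and *Actg2* -0.01 for *Pole4* in *Trp53*-/-, and *Lmod1* -0.17 for the difference.

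Without 1 library the ranges that crossed 0 were -0.11 to 0.07 (*Myl9*), -0.13 to 0.07 (*Tpm2*) and -0.21 to 0.00 (*Ccn2*) for *Trp53*-/- in *Pole4*-/-, and -0.20 to 0.08 (*Cnn2*), -0.45 to 0.05 (*Tpm1*) and -0.46 to 0.01 (*Actg2*) in *Pole4*+/+ MEFs. They were -0.11 to 0.03 (*Myl9*) and -0.26 to 0.03 (*Ccn2*) for *Trp53*+/- in *Pole4*-/-, -0.13 to 0.17 (*Actg2*) for *Trp53*+/- in *Pole4*+/+, -0.11 to 0.03 (*Tpm2*) for *Pole4* in *Trp53*+/+, -0.06 to 0.21 (*Cnn2*) and -0.00 to 0.46 (*Actg2*) for *Pole4* in *Trp53*-/-, and -0.05 to 0.44 (*Lmod1*) for the difference.

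Counts over all genes moved more. *Pole4* in *Trp53*+/+ MEFs had 626 genes called, 1618 with DESeq2, 5259 with voom, 2244 with totals, 3358 with the compared libraries, 3 with the *Xist* covariate, and 8 to 3222 without 1 library. *Trp53*-/- in *Pole4*+/+ MEFs had 723, and 1312, 2977, 192 and 90 with the first 4 of these and 325 to 2700 without 1 library. *Trp53*-/- in *Pole4*-/- MEFs had 6699, 3722 with totals and 5108 to 7595 without 1. *Trp53*+/- in *Pole4*-/- MEFs had 805, and 1735, 3865, 2163, 2682 and 101, and 17 to 3191 without 1. In *Pole4*+/+ MEFs it had 142, and 403, 1120, 39, 217 and 52, and 17 to 374. The difference had 52, 1791 with DESeq2, 1192 with voom, 0 with totals and 0 to 3242 without 1, and it was 548 with the replicate block. Any difference had 4480, 9131 with voom and 2894 to 6846 without 1 library. The contractile genes had at least 567 counts in every library, so that counting error was small.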

Other observations

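*Acta1*, the skeletal muscle actin, ranged from 21.1 to 153 CPM over the libraries (median 62.9 CPM) in cultures where *Myod1* did not pass 1.05 CPM. *Pdgfra* ranged from 14.0 to 254 CPM, *Dcn* from 1.45 to 35.01 CPM and *Lum* from 1.09 to 41.7 CPM, with the highest value of all 3 in the first *Pole4*+/+ *Trp53*-/- library, where the 10 contractile genes were lowest. Of the 10 fibroblast markers, 4 lay below their median there, *Vim* at its lowest, and the sum over the list ranked 10 from the lowest of 18. By *Xist*, 7 of the 18 libraries were male.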
